A study of Mus musculus with 9 samples.

Results

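The genes described here are the clustered histone genes of the mouse, measured on whole-transcript arrays in Lewis lung carcinoma cells grown in 3 settings. Members were taken by name: array features whose annotated symbol begins with H2ac, H2bc, H3c, H4c or H1f and a digit (the older symbols begin with Hist), with 1 feature per gene. The rule found 57 of the 19505 genes on the array: 8 linker histone H1 genes, 13 H2A, 15 H2B, 10 H3 and 11 H4 genes. By the reference annotation 46 lie on chromosome 13, in the major cluster, and 8 on chromosome 3. H1f7 on chromosome 15 and H1f8 and H1f10 on chromosome 6 fit the name rule but lie outside the clusters. The same rule fits 67 protein-coding genes of the reference annotation, and the other 10, among them H1f0 and H1f4, were not analysed here.

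The cells are GFP-labelled 3LL cells, a murine lung cancer line also called Lewis lung carcinoma (LLC), and the strain on the labels is C57/BL6. All 9 samples carry the GFP label. The dish group (n = 3) was kept in culture for 7 days as a monolayer. The subcutaneous group (n = 3) and the lung group (n = 3) were GFP+ cells isolated 7 days after they had been placed beneath the skin or in the lung. The series text calls the latter BLM lungs without writing the abbreviation out. The labels do not tie the samples of a group to separate animals or dishes, so the p-values reflect how far these samples vary, possibly for technical reasons alone. The series text names lung-specific expression in the lung model as its topic, and histone genes are not part of that question.

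Histones package DNA into nucleosomes, each an octamer of H2A, H2B, H3 and H4 with a linker histone H1 where the DNA enters and leaves. The clustered genes supply the bulk of new histone while DNA is being copied. Most of their mRNAs end in a stem-loop, not in a poly(A) tail, and the stem-loop binding protein SLBP carries them through processing, translation and decay. NPAT, a substrate of cyclin E and CDK2, switches the clusters on at the start of S phase. Replacement histones such as H3.3 and H2A.Z come from single genes elsewhere in the genome, and their mRNAs are polyadenylated. In human cells, polyadenylated mRNAs have also been described from some clustered genes, among them the counterparts of H1f2, H2bc4 and H2bc21. The copies within a type are close to each other in sequence, so separate values of such copies are uncertain. H3c14 and H3c15 had identical values on all 9 arrays and are in effect 1 measurement.

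Promoter sequences are shown for the H2B, H1 and H4 genes on which the results below turn, and for H3c14 as an example that was not called in any comparison. Each is the 250 bases before the start of transcription, 5′ to 3′ on the gene's own strand, from RefSeq in build GRCm38.p6. Capitals mark 4 short motifs on either strand. They are the CCAAT box, the TATA box (searched as TATAAA), the octamer known from H2B promoters (ATTTGCAT) and the core of the H1 box (AAACACA). Matches were looked for without regard to overlap.
H2bc7, chr13:23574208-23574457, minus strand: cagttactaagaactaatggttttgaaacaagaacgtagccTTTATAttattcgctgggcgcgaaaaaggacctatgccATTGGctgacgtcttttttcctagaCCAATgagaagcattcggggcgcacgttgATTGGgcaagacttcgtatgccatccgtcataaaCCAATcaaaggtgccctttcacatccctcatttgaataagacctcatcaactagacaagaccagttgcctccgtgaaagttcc
H2bc3, chr13:23746484-23746733, plus strand: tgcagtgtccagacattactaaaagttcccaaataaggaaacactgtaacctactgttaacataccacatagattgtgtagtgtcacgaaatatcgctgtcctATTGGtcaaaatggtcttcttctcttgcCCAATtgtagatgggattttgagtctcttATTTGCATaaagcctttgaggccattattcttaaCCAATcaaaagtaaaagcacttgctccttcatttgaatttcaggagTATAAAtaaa
H2bc15, chr13:21753826-21754075, plus strand: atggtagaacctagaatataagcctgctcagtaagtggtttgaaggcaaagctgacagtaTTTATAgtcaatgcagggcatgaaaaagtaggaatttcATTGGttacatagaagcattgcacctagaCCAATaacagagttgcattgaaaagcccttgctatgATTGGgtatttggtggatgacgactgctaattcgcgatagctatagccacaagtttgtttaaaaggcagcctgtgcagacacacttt
H2bc8, chr13:23571150-23571399, plus strand: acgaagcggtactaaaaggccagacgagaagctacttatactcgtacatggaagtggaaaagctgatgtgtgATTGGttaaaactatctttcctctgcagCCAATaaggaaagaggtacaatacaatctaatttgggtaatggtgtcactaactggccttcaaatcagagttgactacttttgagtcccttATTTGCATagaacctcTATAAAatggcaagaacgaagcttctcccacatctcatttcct
H1f2, chr13:23738557-23738806, plus strand: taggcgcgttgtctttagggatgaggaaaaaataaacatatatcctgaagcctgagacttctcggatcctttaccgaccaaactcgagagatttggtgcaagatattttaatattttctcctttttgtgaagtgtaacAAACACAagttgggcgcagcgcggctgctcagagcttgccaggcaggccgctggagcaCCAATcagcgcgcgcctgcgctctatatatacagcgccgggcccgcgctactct
H1f3, chr13:23554782-23555031, plus strand: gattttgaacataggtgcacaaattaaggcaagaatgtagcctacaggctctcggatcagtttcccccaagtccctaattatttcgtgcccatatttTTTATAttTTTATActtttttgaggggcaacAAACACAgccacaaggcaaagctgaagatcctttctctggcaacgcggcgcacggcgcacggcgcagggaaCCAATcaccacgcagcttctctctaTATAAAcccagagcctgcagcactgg
H4c6, chr13:23551669-23551918, minus strand: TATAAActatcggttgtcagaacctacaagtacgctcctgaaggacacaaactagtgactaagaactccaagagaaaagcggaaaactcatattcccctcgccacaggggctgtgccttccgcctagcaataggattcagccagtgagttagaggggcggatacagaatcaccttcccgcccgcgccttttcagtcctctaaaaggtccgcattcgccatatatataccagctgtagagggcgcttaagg
H3c14, chr3:96246435-96246684, plus strand: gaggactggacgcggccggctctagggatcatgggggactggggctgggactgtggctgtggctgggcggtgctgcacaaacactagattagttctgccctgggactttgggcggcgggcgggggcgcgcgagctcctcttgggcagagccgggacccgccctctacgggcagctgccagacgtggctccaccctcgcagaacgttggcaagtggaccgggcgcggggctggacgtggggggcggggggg

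Of the 57 members 52 had a promoter in the RefSeq table, including 13 H2A and 13 H2B genes. CCAAT was found in 13 of 13 H2A, 13 of 13 H2B, 6 of 8 H1, 6 of 8 H3 and 3 of 10 H4 promoters, and in 34.5% of all 27025 promoters of the same length. The octamer was found in 6 of 13 H2A and 6 of 13 H2B promoters and in 0 of the H1, H3 and H4 promoters, against 1.61% of all promoters. H2A and H2B genes that start head to head share much of this window, so their matches are not separate. The letters TATAAA were found, on either strand and anywhere in the window, in 24 of 52 promoters, against 13.0% of all promoters. Their place was not weighed, so a match need not be a working TATA box. In H4c6 the only match lies at the end of the window farthest from the start of transcription. The H1 box core was found in 4 of 8 H1, 2 of 13 H2A and 2 of 13 H2B promoters, against 6.22% of all promoters. In the sequences above, H2bc3 and H2bc8 hold the octamer and H2bc7 and H2bc15 do not, H1f2 and H1f3 hold the H1 box core, and H3c14 holds none of the 4 motifs. No match says only that these letters are not in this window.

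Signals are given on the log2 scale as deposited, and the level of 1 gene is not set against that of another, since each feature has its own probes. A signal was read as above background when it passed the 90th percentile of the negative controls on its array (7.20 to 7.73). Of the 57 members 48 were above background on all 9 arrays, 3 on some arrays (H2ac21, H2bc23 and H4c9) and 6 on none (H1f6, H1f7, H1f8, H1f10, H2bc1 and H3c1). Of those 6, H1f6 and H2bc1 are known as germ cell histones of the testis and H1f8 as the linker histone of oocytes. H2ac1, the testis H2A gene beside H2bc1, lay at 9.64 to 11.89 and so above background on every array.

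On the arrays as a whole, 28.0% to 34.4% of genes were above background. The bacterial hybridization controls averaged 12.01 ± 0.15 (SD, n = 3) on the dish, 12.83 ± 0.11 on the subcutaneous and 11.35 ± 0.35 on the lung arrays. The RNA integrity number (RIN) averaged 8.50 ± 0.10, 7.97 ± 0.57 and 8.17 ± 0.23 in the same order. Of 8 epithelial genes only the keratin Krt8 was above background on all arrays, and 6, among them Cdh1 and Epcam, were so on none.

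**Figure D1:**
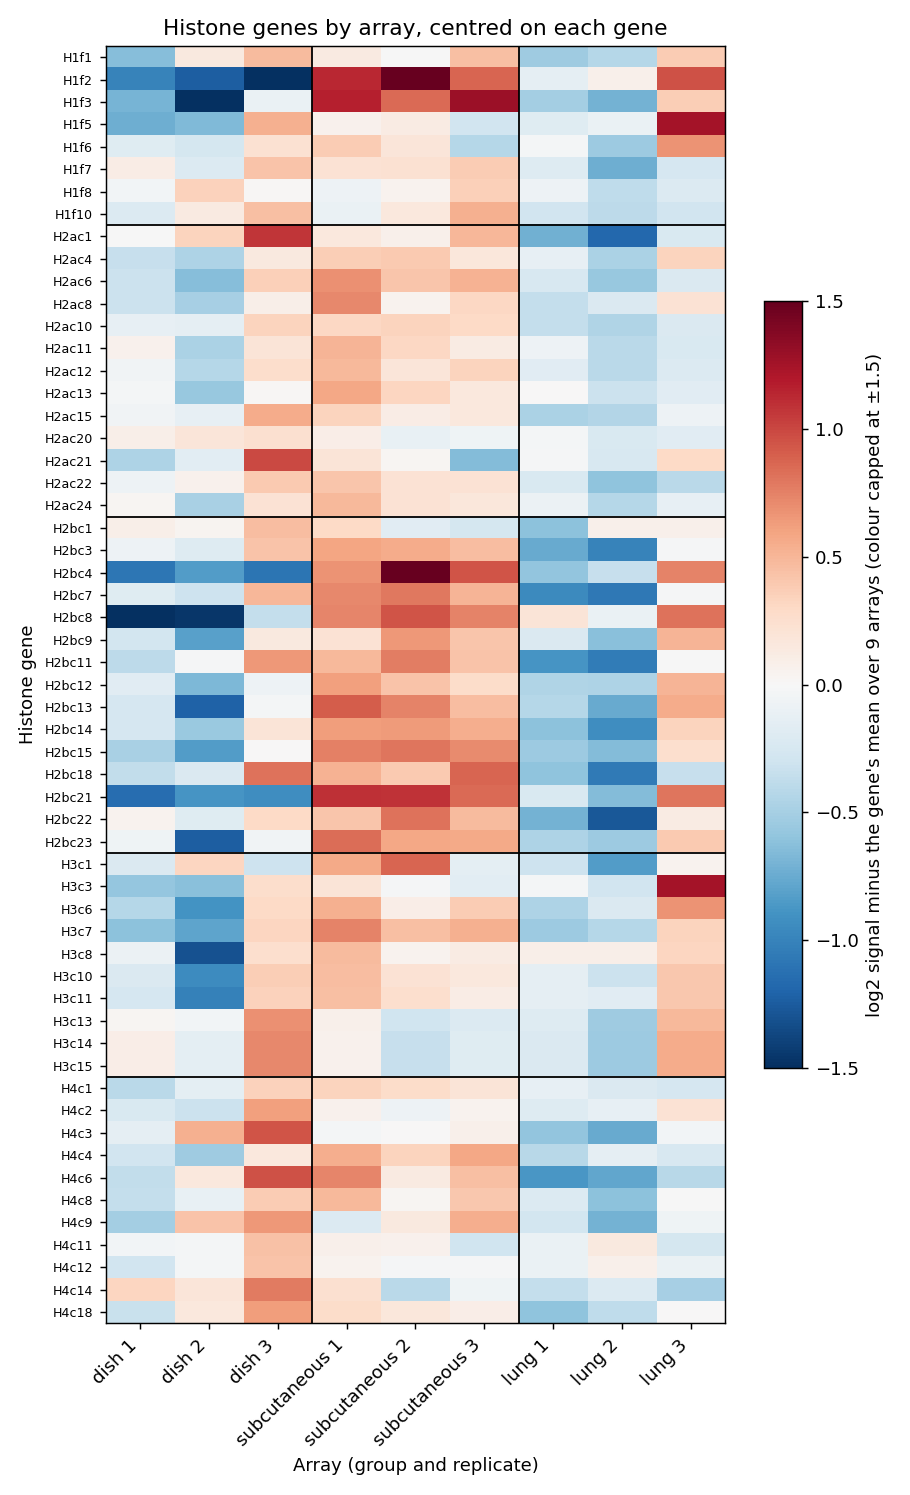
Signal of each of the 57 histone genes (rows, grouped as H1, H2A, H2B, H3 and H4) on each of the 9 arrays (columns), as the log2 signal minus that gene's mean over the 9 arrays. For H2B, 12 of 15 genes are wholly higher on the subcutaneous than on the dish arrays and 9 of 15 wholly higher than on the lung arrays, and dish replicate 3 and lung replicate 3 are the highest arrays of their groups for 45 and 37 of 48 genes.

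Replicate spread of the histone genes differed by group. Among the 48 members above background on all arrays, the median SD was 0.43 in the dish, 0.17 in the subcutaneous and 0.39 in the lung group. For the 4804 genes above background on all arrays it was 0.24, 0.25 and 0.28. Dish replicate 3 was the highest dish array for 45 of the 48 members, and for 23.0% of the 4804 genes. It stood 0.68 (median, log2) above the mean of the other dish arrays for the members and -0.11 for the 4804 genes. Lung replicate 3 was the highest lung array for 37 of the 48 members, including 13 of 13 H2B genes, 9 of 9 H3 genes and 4 of 4 H1 genes, and for 37.6% of the 4804 genes. It stood 0.97 above the mean of the other lung arrays for the H2B genes, 0.85 for the H3 genes, 0.16 for the H2A genes and 0.20 for the H4 genes, and -0.04 for the 4804 genes. So dish replicate 3 carried higher histone signals than the other dish arrays, and lung replicate 3 did so for the H1, H2B and H3 genes. Of 12 H2A genes, lung replicates 1 and 3 were each the highest lung array for 6. Of 10 H4 genes, lung replicate 3 was the highest for 5 and the lowest for 4. Counts without these arrays stand beside each comparison.

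The first comparison set cells from subcutaneous tumours against cells in the dish. In all, 7 of 57 members (12.3%) were higher under the skin and 0 were lower, where 6.41% of all genes were higher and 6.47% lower (limma, adjusted p under 0.05). The 7 were the linker histones H1f2 and H1f3 and the H2B genes H2bc4, H2bc8, H2bc21, H2bc13 and H2bc15. Many of all genes were under background and could hardly be called. With a filter on dim genes, 11 of 50 members were higher and 0 lower, against 1235 and 1293 of 6667 genes. In a bulk sample, more cells of a kind and more RNA per cell cannot be told apart. The median difference over the 57 members was 0.38 on the log2 scale, against -0.01 over all genes. Without dish replicate 3, 10 members were called and the median was 0.58. Without dish replicate 2, 5 were called and the median was 0.23. Without lung replicate 3, which enters only the estimate of spread here, 8 were called.

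H1f2 (formerly Hist1h1c), a somatic linker histone, showed the largest difference. Its signals were 9.39, 9.15 and 7.71 on the dish arrays, 11.53, 12.42 and 11.26 on the subcutaneous arrays and 10.25, 10.47 and 11.34 on the lung arrays. All subcutaneous values lay above all dish values, and the lung values lay in between except lung replicate 3, which fell within the subcutaneous range. The rise from dish to subcutaneous was 2.99 with a standard error of 0.45, or 7.94-fold (adjusted p = 0.000705). H1f3 (formerly Hist1h1d), another somatic linker histone, had signals of 8.59, 7.63 and 9.20 in the dish, 10.47, 10.14 and 10.58 under the skin and 8.78, 8.59 and 9.66 in the lung. The subcutaneous arrays were apart from both other groups, which overlapped, and the rise over the dish was 1.92 ± 0.38 (SE; adjusted p = 0.00464).

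The other linker histones above background did not pass. The somatic genes H1f1 and H1f5 differed between subcutaneous and dish arrays by 0.20 and 0.26 (adjusted p = 0.774 and 0.760). H1f1 had 10.66, 11.45 and 11.78 in the dish and 11.44, 11.29 and 11.75 under the skin, and H1f5 8.85, 8.92 and 10.11 against 9.64, 9.71 and 9.29. In both the groups overlapped. The other 4 H1 members were under background on every array.

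Among the H2B genes, which encode the partner of H2A in the nucleosome, H2bc4 (formerly Hist1h2bc) had signals of 10.46, 10.71 and 10.45 in the dish, 12.22, 13.13 and 12.49 under the skin and 10.96, 11.19 and 12.28 in the lung. The subcutaneous and dish groups did not overlap, and the rise was 2.07 ± 0.34 (SE; adjusted p = 0.00142). H2bc21 (formerly Hist2h2be), on chromosome 3, had signals of 7.52, 7.78 and 7.73 in the dish, 9.75, 9.75 and 9.51 under the skin and 8.44, 8.01 and 9.46 in the lung. The rise over the dish was 1.99 ± 0.32 (SE; adjusted p = 0.00119), and every lung array lay between the other groups. H2bc8 (formerly Hist1h2bg) had signals of 10.17, 10.23 and 11.33 in the dish, 12.43, 12.64 and 12.43 under the skin and 11.88, 11.59 and 12.50 in the lung. It was higher in both transplanted groups than in the dish, and the rise under the skin was 1.92 ± 0.33 (SE; adjusted p = 0.00187).

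These 5 genes, H1f2, H1f3, H2bc4, H2bc8 and H2bc21, were called in this comparison under all 18 alternative settings, the 9 that leave out 1 array included. The 2 others were less steady. H2bc15 had signals of 14.40, 14.05 and 14.90 in the dish and 15.65, 15.69 and 15.60 under the skin, a rise of 1.20 ± 0.29 (SE; adjusted p = 0.0166), and was called under 14 of 18 settings. H2bc13 rose by 1.21 ± 0.37 (SE; adjusted p = 0.0484) and was called under 9 of 18. Both gave groups without overlap. H2bc15 was not called without dish replicate 1 or 2 or subcutaneous replicate 2, or with RIN as a covariate. H2bc13 was not called without dish replicate 1 or 2, any subcutaneous array or lung replicate 1, with RIN as a covariate, or under the 2 other scalings.

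**Figure D2:**
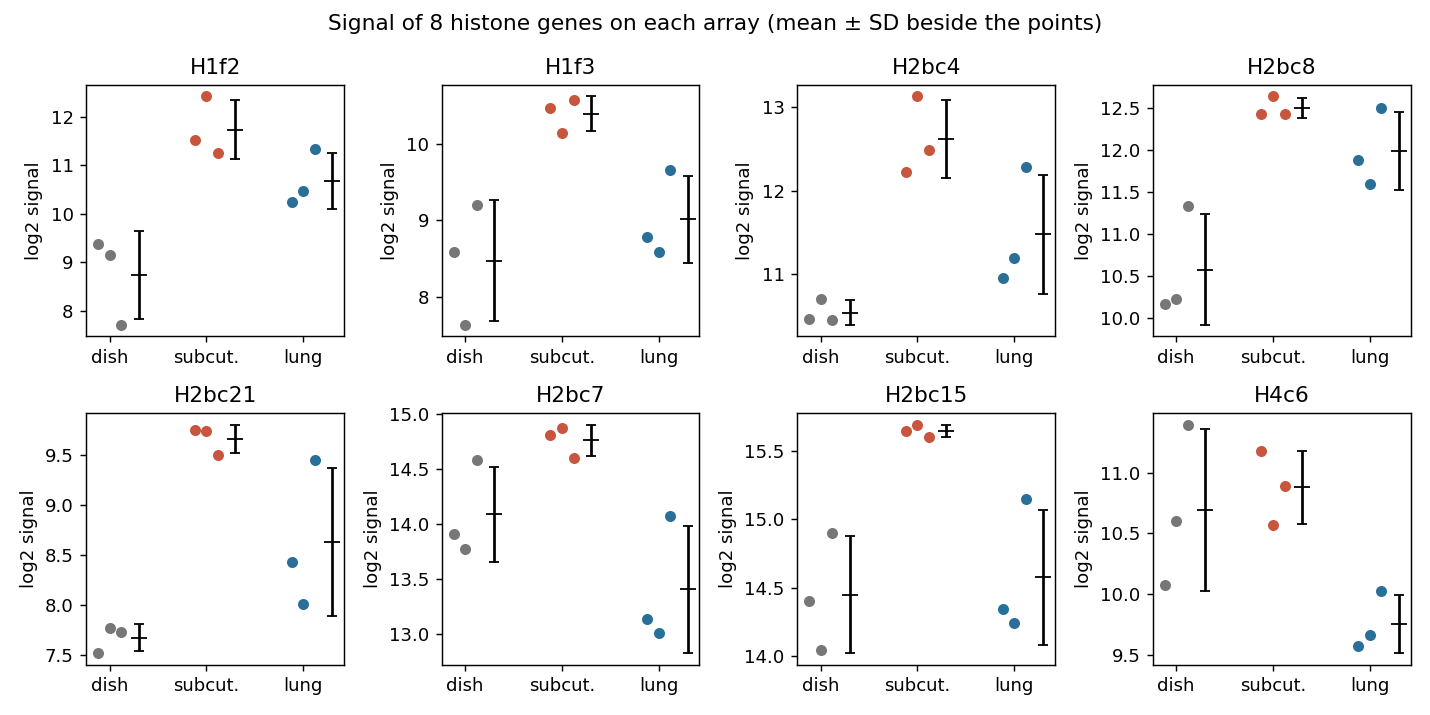
Log2 signal of 8 histone genes on each array, by group, with the mean ± SD of each group (n = 3) beside its points, each panel on its own axis. H1f2, H1f3, H2bc4, H2bc8 and H2bc21 have their lowest group mean in the dish and their highest under the skin, while H2bc7 and H4c6 are lower in the lung than in subcutaneous tumours.

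By type, the median difference between subcutaneous and dish arrays was 0.75 for the 15 H2B genes, 0.52 for H3, 0.37 for H2A, 0.18 for H1 and -0.01 for H4. Of the H2B genes 14 of 15 had a higher mean under the skin and 12 gave groups without overlap, and the 1 exception was H2bc1, which is under background. By limma 0 of the 13 H2A, 0 of the 10 H3 and 0 of the 11 H4 genes passed, although 3, 1 and 1 of them had an unadjusted p under 0.05. Over all types 19 of 57 members lay wholly higher on the subcutaneous arrays and 0 wholly lower, against 14.2% and 15.1% of all genes. On chromosome 3, 2 of 8 members had a higher mean under the skin, H2bc18 (0.52, adjusted p = 0.358) and H2bc21, and on chromosome 13, 39 of 46 did. The H3 gene H3c14 on chromosome 3 had signals of 15.73, 15.48 and 16.36 in the dish. Under the skin they were 15.70, 15.29 and 15.45, a difference of -0.38 (adjusted p = 0.506) with overlapping groups. H4c14, the H4 member on chromosome 3, differed by -0.50 (adjusted p = 0.247).

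The second comparison set cells in the lung against cells from subcutaneous tumours. In this comparison 12 of 57 members (21.1%) were lower in the lung and 0 were higher. Of all genes 5.79% were lower and 9.21% higher. With the filter on dim genes, 16 of 50 members were lower and 0 higher, against 889 and 1757 of 6667 genes. Of the 12, 9 were H2B genes: H2bc7, H2bc18, H2bc11, H2bc22, H2bc4, H2bc3, H2bc15, H2bc21 and H2bc14. The others were the linker histone H1f3, the H4 gene H4c6 and the H2A gene H2ac6. The median difference was -0.52 over the members and -0.07 over all genes, and 51 of 57 members had a lower mean in the lung. Among genes above background on all arrays the medians were -0.54 for the 48 members and 0.16 for all 4804.

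These calls were lost when single arrays were left out, as were many over all genes. Without lung replicate 1, or without lung replicate 2, 0 members were called by limma (19 and 15 of 57 had an unadjusted p under 0.05) and median differences of -0.53 and -0.43. Without lung replicate 3 the count was 16 and the median -0.67. The count was 6, 5 and 4 without subcutaneous replicate 1, 2 and 3. Over all genes 2927 were called, 1476 without lung replicate 1 and 1938 without lung replicate 2. Each of the 12 genes kept a lower lung mean under all 18 settings.

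H2bc7 (formerly Hist1h2bf) had the largest H2B difference, with 14.81, 14.87 and 14.60 on the subcutaneous and 13.14, 13.01 and 14.07 on the lung arrays. The groups did not overlap, lung replicate 3 came nearest to the subcutaneous range, and the gene fell by 1.36 ± 0.31 (SE; adjusted p = 0.0119). Its dish values of 13.91, 13.78 and 14.58 lay below the subcutaneous range and overlapped with the lung values, with a difference of 0.67 between subcutaneous and dish arrays (adjusted p = 0.199). H2bc3 (formerly Hist1h2bb) fell from 16.25, 16.21 and 16.12 to 14.89, 14.65 and 15.64, by 1.13 ± 0.29 (SE; adjusted p = 0.0181). H2bc7 and H2bc3 were called under 16 of the 18 settings, all but those without lung replicate 1 or 2.

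H2bc18 (formerly Hist2h2bb) on chromosome 3 fell from 13.16, 13.04 and 13.51 to 12.03, 11.57 and 12.29, by 1.27 ± 0.32 (SE; adjusted p = 0.0190). H2bc11 and H2bc22 fell by 1.21 and 1.19 (adjusted p = 0.0251 for both), and H2bc15 by 1.07 (adjusted p = 0.0279). H2bc4, H2bc21 and H2bc14 fell by 1.14, 1.03 and 1.01 (adjusted p = 0.0420, 0.0468 and 0.0496). These last 3 stood close to the threshold and were called under 9, 8 and 7 of 18 settings. With the replicate number as a block H2bc21 was not called.

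Outside the H2B genes, H1f3 fell by 1.38 ± 0.38 (SE; adjusted p = 0.0277), from a subcutaneous mean of 10.40 ± 0.22 (SD, n = 3) to a lung mean of 9.01 ± 0.57. H4c6 had signals of 11.18, 10.57 and 10.89 under the skin and 9.57, 9.66 and 10.02 in the lung, without overlap, and fell by 1.13 ± 0.32 (SE; adjusted p = 0.0324). H2ac6 fell from 10.99, 10.71 and 10.82 to 10.06, 9.73 and 10.08, by 0.88 ± 0.27 (SE; adjusted p = 0.0473), and was called under 10 of 18 settings. H1f3 and H4c6 were called under 14 of 18, not without subcutaneous replicate 1 or 3 or lung replicate 1 or 2. H1f2 differed by -1.05 and did not pass (adjusted p = 0.136), its lung replicate 3 lying within the subcutaneous range.

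**Figure D3:**
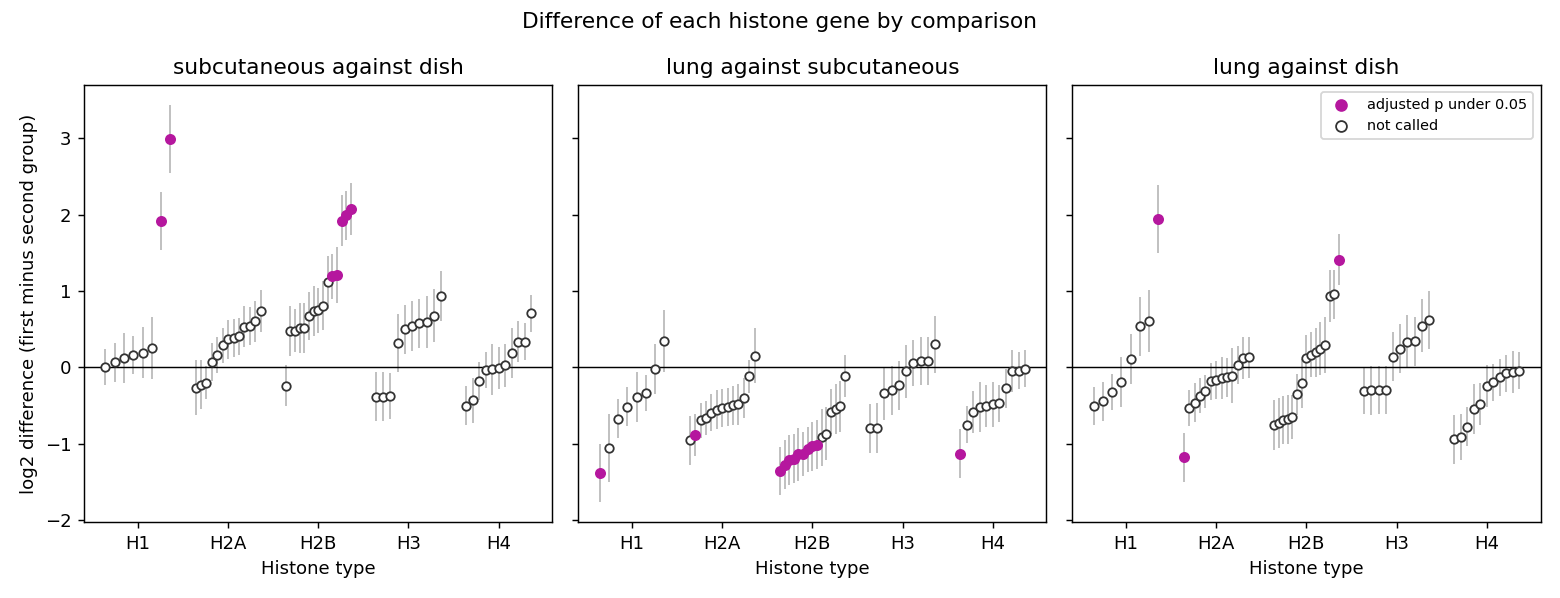
Log2 difference of each of the 57 histone genes, grouped by type, with its standard error, in the 3 comparisons (first group minus second). Filled points passed an adjusted p under 0.05: 7 above 0 between subcutaneous and dish arrays, 12 below 0 between lung and subcutaneous arrays, and 2 above and 1 below 0 between lung and dish arrays.

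The median difference between lung and subcutaneous arrays was -1.03 for H2B, -0.53 for H2A, -0.48 for H4, -0.45 for H1 and -0.14 for H3 genes. All 15 H2B means were lower in the lung, and 9 of the 15 genes gave groups without overlap. Of 10 H3 genes 4 had a higher and 6 a lower mean in the lung, 0 were called by limma, and 2 had an unadjusted p under 0.05. Over all types 28 of 57 members lay wholly lower in the lung and 0 wholly higher, where 16.8% and 15.8% of all genes did so. Scaling did not turn this direction. After quantile normalization 49 of 57 members were lower and 13 were called lower, and with arrays centred on their 75th percentile 56 were lower and 26 were called lower. The latter centring moved the median of all genes from -0.07 to -0.38, and the median of the members from -0.52 to -0.82. Over all genes these scalings changed the split of calls from 1797 higher and 1130 lower to 1405 and 1248, and to 1124 and 2936.

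The third comparison set cells in the lung against cells in the dish, where 6.78% of all genes were called in either direction. The linker histone H1f2 rose by 1.94 ± 0.45 (SE; adjusted p = 0.0206, 3.83-fold) and H2bc8 by 1.41 ± 0.33 (SE; adjusted p = 0.0231). H2ac1 fell by 1.18 ± 0.32 (SE; adjusted p = 0.0437), from 10.81, 11.16 and 11.89 in the dish to 10.10, 9.64 and 10.59 in the lung. So 2 of 57 members (3.51%) were higher and 1 (1.75%) was lower. These shares were near those of all genes, 4.81% and 1.97%. With the filter on dim genes, 2 of 50 members were higher and 3 lower, against 1111 and 419 of 6667 genes. Under that filter the share of members higher was thus below that of the genes. With the 75th percentile centring the split was 1 higher and 5 lower, and after quantile normalization 1 and 1. Over all genes the split was 938 higher and 384 lower, against 565 and 1787 with that centring and 662 and 553 after quantile normalization. The median difference was -0.17 over the members and -0.07 over all genes. Of 57 members 4 lay wholly higher and 8 wholly lower in the lung, against 13.4% and 15.0% of all genes.

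The calls between lung and dish arrays also depended on single arrays. H1f2 was called under 15 of 18 settings, and not without dish replicate 3 or lung replicate 3, or with RIN as a covariate. H2bc8 was called under 11 and H2ac1 under 10. With RIN as a covariate 0 members were called by limma, and 7 had an unadjusted p under 0.05. The count was 1 without dish replicate 2, dish replicate 3 or lung replicate 1, and without lung replicate 3 it was 0 higher and 3 lower. The median of the members was 0.02 without dish replicate 3. H2bc4 and H2bc21, which were higher under the skin than in the dish, stood 0.94 and 0.96 above the dish in the lung (adjusted p = 0.126 and 0.0967). The 3 comparisons share their groups in pairs, so their values are set side by side and are not independent of each other.

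H2A and H2B genes often lie head to head and share the stretch between their starts. Among the RefSeq promoters, 7 such pairs had both partners among the members, all on chromosome 13, with 164 to 281 bases between the start sites. Between subcutaneous and dish arrays the H2B partner differed more upward than its H2A partner in 6 of 7 pairs (median gap 0.36). Between lung and subcutaneous arrays it differed more downward in 5 of 7 (median gap -0.40). The widest gap was that of H2ac8 and H2bc8, whose starts are 180 bases apart: 0.60 (adjusted p = 0.178) for H2ac8 and 1.92 for H2bc8 between subcutaneous and dish arrays. In the pair H2ac15 and H2bc15 the same differences were 0.07 and 1.20 (adjusted p = 0.903 and 0.0166). The difference between partners was not tested. On average over the arrays, 10 of the 57 members passed the 99th percentile of all genes (15.81). They were H2A and H4 genes, among them H2ac11, H2ac12, H2ac13, H2ac15 and H2ac22, and no H2B gene. Whether differences are understated at such signals, here or in the medians by type, was not tested. In the pair H2ac1 and H2bc1, H2bc1 was under background on every array. Over the other 6 pairs, the H2B partner differed more upward between subcutaneous and dish arrays in 6 of 6 (median gap 0.51). Between lung and subcutaneous arrays it differed more downward in 5 of 6 (median gap -0.45). Some of these gaps were small. The gap was 0.09 for H2ac11 and H2bc11 between subcutaneous and dish arrays. Between lung and subcutaneous arrays it was -0.03 for H2ac8 and H2bc8 and 0.01 for H2ac12 and H2bc12.

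**Figure D4:**
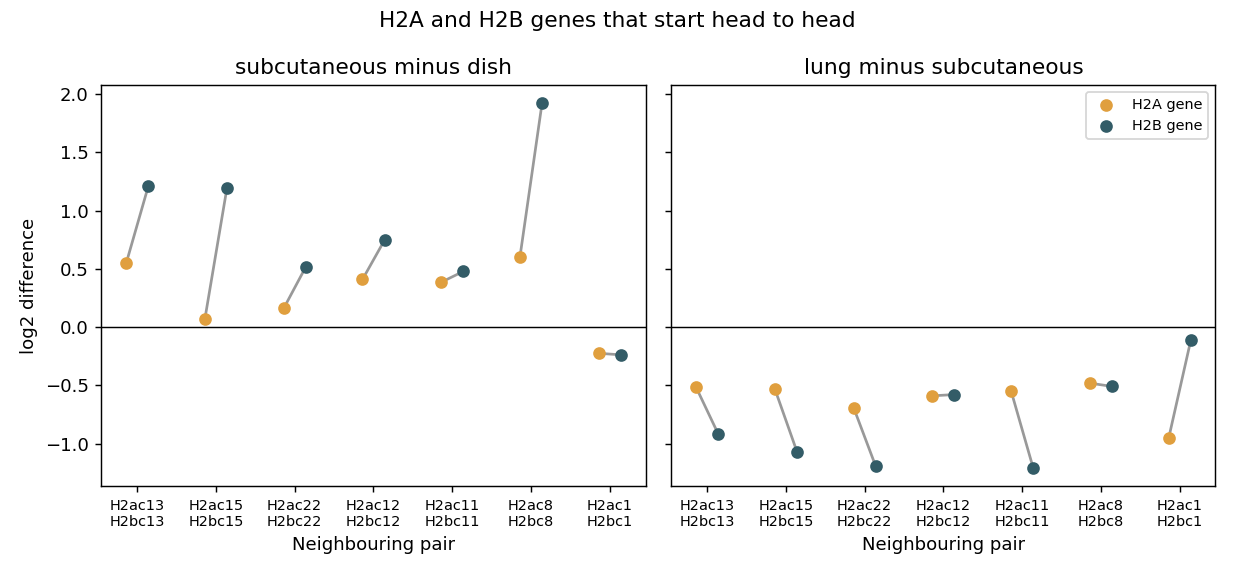
Log2 differences of the H2A gene (left point) and the H2B gene (right point) of 7 head-to-head pairs, for subcutaneous minus dish and lung minus subcutaneous arrays. In 6 of 7 pairs the H2B gene lies above its H2A neighbour on the left panel, and in 5 of 7 below it on the right. In the pair H2ac1 and H2bc1, H2bc1 is under background on all arrays.

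Genes that copy DNA were examined beside the histones, since the clusters are read in S phase. Of 26 measured S phase genes 15 fell from dish to subcutaneous (57.7%, against 6.47% of all genes) and 0 rose, with a median of -0.97. The helicase subunit gene Mcm5 had signals of 14.85, 14.51 and 14.34 in the dish, 12.32, 12.03 and 12.27 under the skin and 13.80, 13.75 and 13.42 in the lung. It fell by 2.36 ± 0.24 (SE; adjusted p = 4.28e-05) from dish to subcutaneous, and the 3 groups did not overlap. The origin licensing gene Cdc6 fell by 2.13, the flap endonuclease Fen1 by 1.88 and the ribonucleotide reductase subunit Rrm1 by 1.64. Between lung and subcutaneous arrays 9 of 26 were higher and 0 lower (34.6% and 0%, against 9.21% and 5.79% of all genes), with a median of 0.59. The 9 were led by Cdc6 (1.99), Fen1 (1.84), the polymerase subunit Pole (1.55) and Mcm5 (1.45). Between lung and dish arrays 0 of 26 were higher and 2 lower, Ccne2 (-1.56) and Mcm5 (-0.91). These are 0% and 7.69%, against 4.81% and 1.97% of all genes. Of the 26 genes 22 were above background on all arrays. With the filter on dim genes, 1293 of 6667 genes were lower between subcutaneous and dish arrays. Under it 1757 were higher between lung and subcutaneous arrays, and 419 lower between lung and dish arrays.

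The subcutaneous arrays thus held the highest H2B medians and the lowest S phase medians. With each gene centred on its own mean, the median of the 15 H2B genes was 0.52 to 0.74 on the subcutaneous, -0.67 to 0.15 on the dish and -0.65 to 0.33 on the lung arrays. The same median for the 26 S phase genes was -0.75 to -0.21, 0.27 to 0.72 and -0.05 to 0.10. These lists were drawn up with earlier results of these data known.

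**Figure D5:**
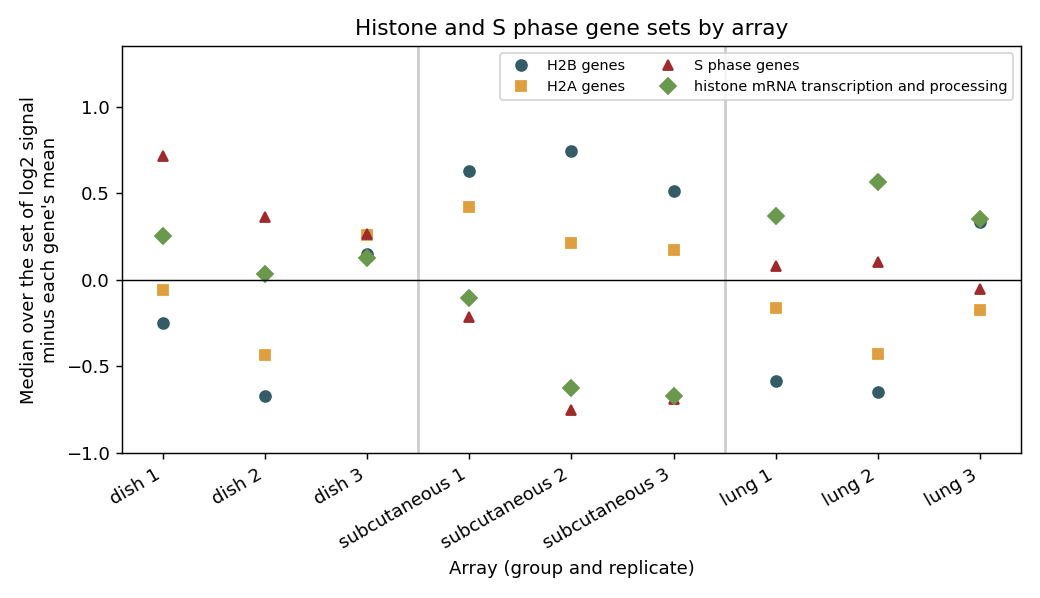
Median over each gene set of the log2 signal minus each gene's own mean, on each of the 9 arrays. The H2B genes are highest on the 3 subcutaneous arrays (0.52 to 0.74), where the S phase genes (-0.75 to -0.21) and the genes of histone mRNA transcription and processing are lowest.

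A further list held genes that transcribe, process and degrade histone mRNA. Of its 17 measured genes 4 fell from dish to subcutaneous and 0 rose (median -0.61), or 23.5% against 6.47% of all genes. Between lung and subcutaneous arrays 7 were higher and 0 lower (median 1.04), or 41.2% against 9.21% of all genes. Of the 17 genes 11 were above background on all arrays. With the filter on dim genes, 1293 of 6667 genes were lower between subcutaneous and dish arrays. Between lung and subcutaneous arrays 1757 of the 6667 were higher, and between lung and dish arrays 1111. The RNA helicase Upf1, which takes part in histone mRNA decay, had signals of 10.58, 10.29 and 10.50 in the dish, 8.14, 8.17 and 7.69 under the skin and 11.55, 11.52 and 9.27 in the lung. Upf1 fell by 2.45 from dish to subcutaneous (adjusted p = 0.00405) and stood 2.78 higher in the lung than in subcutaneous tumours (adjusted p = 0.00226). Srrt (ARS2), a cap-binding partner, fell by 2.20 from dish to subcutaneous, Cpsf3, the nuclease that cuts histone pre-mRNA, by 0.90, and its partner Cpsf2 by 0.88. Srrt and Cpsf3 were 1.70 and 1.36 higher on the lung than on the subcutaneous arrays. Mif4gd, a partner of SLBP in translation, was 1.48 higher on the lung than on the subcutaneous arrays, where it was not well above background, so that the difference is at least 0.70. In the lung it was 1.42 above the dish (at least 0.79), and Yy1, a transcription factor, 1.01 above it, so that 2 of 17 were higher in the lung than in the dish (11.8%, against 4.81% of all genes) and 0 lower.

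Npat, the activator of the clusters, had signals of 10.59, 11.17 and 10.92 in the dish, 10.92, 10.28 and 9.66 under the skin and 11.51, 11.46 and 11.57 in the lung. It was 1.23 ± 0.30 (SE; adjusted p = 0.0166) higher on the lung than on the subcutaneous arrays and was called under 15 of 18 settings, not without subcutaneous replicate 3 or lung replicate 1, or with the 75th percentile centring. Between subcutaneous and dish arrays it differed by -0.61 (adjusted p = 0.234). Slbp, which codes for the stem-loop binding protein, had signals of 10.75, 10.23 and 10.47 in the dish, 10.30, 9.68 and 9.74 under the skin and 10.52, 11.33 and 9.89 in the lung. Its groups overlapped in every comparison, with differences of -0.57, 0.68 and 0.10 between subcutaneous and dish, lung and subcutaneous, and lung and dish arrays (adjusted p = 0.324, 0.208 and 0.901).

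Histone chaperones carry new histones to DNA. Of 20 measured, 4 fell from dish to subcutaneous (20%, against 6.47% of all genes) and 0 rose: Chaf1b (-1.64), a subunit of the chromatin assembly factor that follows the replication fork, the acetyltransferase Hat1 (-1.47), the H3.3 chaperone Daxx (-1.22, at least 0.72 in size) and Ubn1 (-1.07). Between lung and subcutaneous arrays 9 were higher, led by the importin Ipo4 (1.86), the H3 and H4 chaperone Nasp (1.78), Daxx (1.70, at least 1.21) and Hat1 (1.67), and 1 was lower, Rbbp4 (-1.15). These shares of 45% and 5% stood against 9.21% and 5.79% of all genes. The medians were -0.43 and 0.84. Of the 20 genes 17 were above background on all arrays. With the filter on dim genes, 1293 of 6667 genes were lower between subcutaneous and dish arrays. Under it 1757 were higher and 889 lower between lung and subcutaneous arrays, and 1111 and 419 between lung and dish arrays. Between lung and dish arrays Ipo4 (2.11) and Atrx (1.29) were higher and Rbbp4 (-1.11) was lower, or 10% and 5%, against 4.81% and 1.97% of all genes. Of the genes named in these lists, several calls fell away when 1 array was left out: Mcm5 (any dish or lung array), Yy1 (dish replicate 2 or 3 or any lung array), Atrx (dish replicate 3, lung replicate 1 or 2), Rbbp4 (dish replicate 2, lung replicate 1) and Mif4gd (dish replicate 2) between lung and dish arrays. Between subcutaneous and dish arrays the same held for Ubn1 (dish replicate 1 or any subcutaneous array), Cpsf3 (dish replicate 1 or 3, subcutaneous replicate 1 or 3) and Cpsf2 (dish replicate 1 or 2, subcutaneous replicate 3), and between lung and subcutaneous arrays for Srrt (subcutaneous replicate 2, lung replicate 1 or 2). With RIN as a covariate the calls of Rrm1, Hat1, Ubn1, Cpsf3 and Cpsf2 between subcutaneous and dish arrays were lost (limma adjusted p = 0.0786, 0.0727, 0.121, 0.0983 and 0.152). Those of Mcm5, Atrx and Yy1 between lung and dish arrays were lost as well. The Yy1 call was also lost after quantile normalization and with the 75th percentile centring. Srrt was not called between lung and subcutaneous arrays after quantile normalization or with only the 2 groups compared.

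Replacement histones are made outside S phase as well. By limma 1 of 9 measured genes was called, Cenpa, the H3 variant of the centromere. It fell by 1.94 from dish to subcutaneous (adjusted p = 0.000483) and was 1.44 higher on the lung than on the subcutaneous arrays (adjusted p = 0.00400). This 1 gene is 11.1% of the list, against 6.47% of all genes lower in the former comparison and 9.21% higher in the latter. With the filter on dim genes, these were 1293 and 1757 of 6667 genes. H3f3a and H3f3b, which both code for H3.3, differed by 0.29 and 0.33 between subcutaneous and dish arrays (adjusted p = 0.460 and 0.390). H2az1 and H2ax, the H2A variants of regulatory nucleosomes and of DNA damage signalling, differed by -0.65 and -0.49 (adjusted p = 0.0771 and 0.301). Between lung and subcutaneous arrays these 4 genes differed by -0.28, 0.28, 0.54 and 0.32 (adjusted p = 0.424, 0.444, 0.129 and 0.486).

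Other measures moved with the groups. The hybridization controls followed the order subcutaneous, dish, lung, from the highest. The positive controls ran the other way, with mean medians of 10.37, 10.72 and 11.03 in the same order. The 75th percentile of the gene features averaged 8.23, 8.19 and 8.51. The epithelial keratin Krt18 had signals of 5.98, 5.91 and 5.27 in the dish, 10.99, 11.03 and 11.06 under the skin and 8.24, 7.23 and 8.66 in the lung. It was not well above background in the dish, rose by at least 3.60 from there to subcutaneous (adjusted p = 1.78e-06) and was lower in the lung than in subcutaneous tumours, at -2.98 (adjusted p = 0.000236). Its partner Krt8 had group means of 12.01 in the dish, 13.64 under the skin and 12.95 in the lung, and rose by 1.63 from dish to subcutaneous (adjusted p = 0.00209). Both keratins thus had the group order of H1f2, H2bc4, H2bc8 and H2bc21, with the lowest mean in the dish and the highest under the skin. The epithelial list as a whole did not: 4 means were higher and 4 lower under the skin than in the dish, with 2 genes called higher and 1 lower. Cdh1, under background on every array, had its lowest mean under the skin (4.71, against 5.62 in the dish and 5.83 in the lung). Of 6 fibroblast genes Dcn, Lum and Dpt were higher under the skin than in the dish, with list means of 8.92 to 9.12 on the subcutaneous, 5.49 to 5.60 on the dish and 6.36 to 7.00 on the lung arrays, while the collagen genes Col1a1, Col1a2 and Col3a1 were above background on no array. The 6 alveolar and airway genes were higher in the lung than in both other groups, with list means of 8.96 to 11.01 on the lung and 4.83 to 5.46 on the other arrays. Sftpb and Ager were each above background on only 1 lung array, and Scgb1a1 on 2. Of 10 leukocyte genes 9 and of 7 endothelial genes 7 were above background on no array, as was the 1 erythroid gene measured. The other leukocyte gene, the macrophage lysozyme Lyz2, had signals of 9.68, 6.32 and 10.04 in the lung, so that lung replicate 2 was not above background. It was higher in the lung than in subcutaneous tumours (at least 1.17, adjusted p = 0.0450) and than in the dish (at least 1.26, adjusted p = 0.0274). The part of these measures in the histone differences was not tested.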

How the data were processed

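Total RNA was purified on spin columns, and biotin was put on fragmented sense cDNA for hybridization to a 1-colour array, per the labels' protocols. The log2 signals deposited by the authors fill 28846 rows, 22206 for gene features and 5222 for negative controls. Not given in the sources used here are software, normalization and genome build. The number of arrays limits the precision. Values ran from 1.56 to 19.7 and were used as deposited. A platform annotation gave 19572 features 1 gene symbol, 0 several and 2634 none, and all 19572 matched the RefSeq gene table of GRCm38.p6. Of 55 genes with several features the brightest was used; no histone gene was among them.

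The test was limma 3.58.1 (lmFit, eBayes; R 4.3.3) on all 9 arrays with 3 group means and no filter, two-sided, with Benjamini-Hochberg adjustment over 19505 genes. A gene was called, or "rose" or "fell", at an adjusted p under 0.05. A bound is the brighter group's mean minus the mean 90th percentile of the negative controls in the dimmer group. The procedure was tested on simulated data. Members, lists, tests and alternatives were chosen with earlier results of these data known. Named were all called members, up to 4 called genes per direction of each list, and some genes fixed by name. H1f8 and H1f10 were left out of the replacement list, being members. Replicate numbers were tried as a block, and 18 alternatives in all were run for each comparison.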

Additional observations from a re-analysis of the deposited data

How the results depend on the processing

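Each comparison was repeated under 18 alternative settings, 9 of which left out 1 array each. Between lung and subcutaneous arrays, 12 histone genes were called, and 26 with arrays centred on their 75th percentile, 19 with an intensity trend and robust fitting, and 19 with array weights; leaving out 1 array gave 0 to 16. Between lung and dish arrays the count was 3, and 6, 5 and 7 under those settings, 5 with the filter on dim genes and 0 with RIN as a covariate; leaving out 1 array gave 1 to 4. Between subcutaneous and dish arrays it was 7, and 11 with the filter on dim genes. Leaving out 1 array gave 5 to 10. The filter kept 50 histone genes and 6667 genes in all. Under it 2528 of the 6667 were called between subcutaneous and dish arrays, and 1530 between lung and dish arrays. Over all genes, 2927 were called between lung and subcutaneous arrays (1476 to 2928 with 1 array left out). Between lung and dish arrays 1322 were called, against 2352 with the 75th percentile centring, 3039 with array weights and 856 with RIN as a covariate (514 to 1442 with 1 array left out). Between subcutaneous and dish arrays 2513 were called, against 1280 with RIN as a covariate (1639 to 2738 with 1 array left out). Under 75th percentile centring the shift is added by construction; other causes were not tested. With the replicate block the counts of histone genes were 12, 3 and 8. Same-numbered arrays of different groups did not deviate together over all genes (r of -0.06 to 0.09). For 4 of 9 arrays the best match carried their own number, so the numbers were not taken as pairs. For the histone genes, dish replicate 3 and lung replicate 3 were both the highest of their group, for 45 and 37 of 48 members. Subcutaneous replicate 3 was the highest for 6 of 48. No called histone gene, and no called gene named from the S phase, mRNA, chaperone and replacement lists, turned direction under any setting run.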

Other observations

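The newer names of some histone genes fall outside the name rule. H4f16, an H4 gene formerly named Hist4h4, was under background on all 9 arrays, and its lung signals lay below those of subcutaneous tumours (-1.22, limma adjusted p = 0.0135) and of the dish (-1.32, adjusted p = 0.0164), with 5.17 to 5.71 in the lung, 6.61 to 6.96 under the skin and 6.33 to 7.37 in the dish. H2bu2, an H2B gene formerly named Hist3h2ba, was under background as well and differed between lung and subcutaneous arrays by -0.54 (adjusted p = 0.226). Both were looked at after the histone results had been seen.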
